A study of Homo sapiens with 11 samples.

Results

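Cell cycle and DNA replication genes were examined in SK-N-MC cells. These are a long-established human line of Ewing sarcoma, a bone and soft tissue tumour driven by the fusion factor EWSR1::FLI1. The set held 49 of the 19974 protein-coding genes on chromosomes 1 to 22 and X. It was chosen by function and comprised cyclins, cyclin-dependent kinases (CDKs) and their inhibitors, the retinoblastoma (pocket) proteins, the E2F factors, the replication helicase and its loading factors, mitotic kinases and checkpoint proteins, the CDC25 phosphatases and WEE1, and the transcription factors FOXM1 and MYBL2. All 49 symbols were found in the gene table.

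Peak lists from chromatin immunoprecipitation followed by sequencing (ChIP-seq) were available for 9 targets, with 1 sample per target and no replicates. Cells were labelled wildtype for every target, and no treatment or time course was given. The targets were 4 subunits of NuRD, the nucleosome remodelling and deacetylase complex, the factor FLI1, and 4 histone marks. CHD4, the NuRD ATPase, was pulled down through a Flag tag, so its list shows tagged CHD4 only. The labels do not say how the tag was introduced. HDAC2 removes acetyl groups from histones and MTA2 is a scaffold of the complex. RBBP4 binds histones and belongs to several other chromatin complexes as well. The FLI1 antibody reads the DNA-binding part of the fusion protein. H3K4me3 marks promoters, H3K27ac active promoters and enhancers, H3K4me1 enhancers, and H3K27me3 Polycomb-repressed chromatin. A further 2 input samples were not analysed here.

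The files give peaks and no read counts, so depth is unknown. The number of peaks ran from 1561 for FLI1 to 31247 for H3K4me1, and the 4 subunit lists held 13288 (CHD4), 20633 (HDAC2), 13462 (MTA2) and 13725 (RBBP4). As a check of the cell type, H3K4me3 was found near 4 of 6 Ewing sarcoma markers (NR0B1, NKX2-2, STEAP1 and LIPI, not CD99 or CCK), near 0 of 3 blood and 0 of 2 muscle markers, and near 1 of 3 epithelial markers, KRT8. A gene was counted as having a peak when any base of the peak lay within 1 kb of either annotated end of the gene on GRCh38. The comparison genes were the 11341 other protein-coding genes with an H3K4me3 peak by the same rule. The height of a peak is its fold enrichment at the summit over local background, a value from the authors' peak caller, and the highest peak stood for a gene with several. Without replicates no difference could be set against a replicate spread, and all comparisons are descriptions of these 9 lists.

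Cell division is driven by cyclins that switch on CDKs in turn. Before S phase the pocket proteins hold E2F factors in check. Their release allows expression of the replication genes, and a later wave of expression supplies the genes of mitosis. Promoters of the later genes are known for CCAAT boxes and for a short element called the cell cycle genes homology region (CHR), which the DREAM and MuvB complexes read, and those of the replication genes for E2F sites. RBBP4 is a subunit of MuvB as well as of NuRD.

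Promoters of 6 members are shown because they span the main patterns found: CDK1, PLK1 and CCNB2 had peaks of HDAC2 and RBBP4 and of neither CHD4 nor MTA2, MCM2 and MCM6 had no RBBP4 peak, and CDKN1B had peaks of all 4 subunits. The sequences are from RefSeq (GRCh38.p14), 250 bases before to 30 bases after the listed start site, 5′ to 3′ on the strand of the gene. Capitals mark 4 kinds of searched motif, each on either strand. The E2F-type letters were TTTCCCGC, TTTGGCGC and TTTCGCGC. The first spelling of the CHR-type letters was TTTGAA and the other spelling searched for was TTCGAA. The CCAAT box was searched by its 5 letters, and the ETS-type letters were CCGGAA. CDK1 is at chr10:60778081-60778360 on the plus strand, PLK1 at chr16:23678639-23678918 (plus), CCNB2 at chr15:59104896-59105175 (plus), MCM2 at chr3:127598161-127598440 (plus), MCM6 at chr2:135876414-135876693 (minus) and CDKN1B at chr12:12717118-12717397 (plus).
CDK1: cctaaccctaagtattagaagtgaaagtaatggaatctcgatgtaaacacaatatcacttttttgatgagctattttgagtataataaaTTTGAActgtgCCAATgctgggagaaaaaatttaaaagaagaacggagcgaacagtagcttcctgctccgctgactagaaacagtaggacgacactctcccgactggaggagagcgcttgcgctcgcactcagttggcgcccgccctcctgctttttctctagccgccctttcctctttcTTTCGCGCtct
PLK1: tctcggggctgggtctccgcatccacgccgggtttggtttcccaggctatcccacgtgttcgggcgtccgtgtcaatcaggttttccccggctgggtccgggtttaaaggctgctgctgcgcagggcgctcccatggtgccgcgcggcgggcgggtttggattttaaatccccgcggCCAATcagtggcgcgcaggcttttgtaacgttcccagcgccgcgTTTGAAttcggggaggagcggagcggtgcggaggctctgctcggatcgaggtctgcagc
CCNB2: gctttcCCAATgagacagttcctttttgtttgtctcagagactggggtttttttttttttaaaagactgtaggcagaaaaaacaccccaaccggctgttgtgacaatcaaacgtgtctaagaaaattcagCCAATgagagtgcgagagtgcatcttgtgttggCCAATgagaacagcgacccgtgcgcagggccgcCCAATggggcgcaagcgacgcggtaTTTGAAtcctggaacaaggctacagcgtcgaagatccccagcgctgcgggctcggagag
MCM2: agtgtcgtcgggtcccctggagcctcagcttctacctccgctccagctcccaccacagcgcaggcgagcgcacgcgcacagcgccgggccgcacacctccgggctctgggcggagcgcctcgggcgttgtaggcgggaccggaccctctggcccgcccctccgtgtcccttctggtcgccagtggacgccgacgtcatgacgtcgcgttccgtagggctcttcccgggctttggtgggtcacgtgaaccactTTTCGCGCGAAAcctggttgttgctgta
MCM6: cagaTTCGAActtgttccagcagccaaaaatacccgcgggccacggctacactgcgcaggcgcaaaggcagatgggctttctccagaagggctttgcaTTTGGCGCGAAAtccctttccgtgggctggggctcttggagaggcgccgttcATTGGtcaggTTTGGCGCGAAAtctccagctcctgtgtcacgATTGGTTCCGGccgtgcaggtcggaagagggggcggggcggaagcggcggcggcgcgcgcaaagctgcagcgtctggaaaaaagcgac
CDKN1B: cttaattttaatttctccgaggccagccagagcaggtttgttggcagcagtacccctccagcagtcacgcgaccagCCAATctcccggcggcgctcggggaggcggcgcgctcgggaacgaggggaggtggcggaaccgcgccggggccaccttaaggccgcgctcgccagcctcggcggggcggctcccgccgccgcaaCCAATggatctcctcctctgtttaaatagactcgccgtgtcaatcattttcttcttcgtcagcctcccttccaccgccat

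In the PLK1 and CCNB2 promoters a TTTGAA began at base -29, counted with -1 as the base before the start site. The RBBP4 peak at PLK1 covered the whole printed sequence, with its summit 52 bases upstream (position -52). The RBBP4 summit at CCNB2 lay at -9, and the peak covered the TTTGAA and, of its 4 CCAAT boxes, those that began at -87 and -54. At CDK1, TTTGAA began at -161 and CCAAT at -150, upstream of the RBBP4 peak, whereas the TTTCGCGC at base 20 lay inside it and the summit was at 114. That summit lay downstream of the searched window, so the letters under it were not read. The HDAC2, H3K4me3 and H3K27ac peaks of CDK1 also began downstream of the printed sequence. The MCM2 promoter held TTTCGCGC on both strands in 1 overlapping run, from bases 3 and 7, inside an MTA2 peak with its summit at -64. MCM6 held 2 such overlapping E2F-type runs, which began at -152 and -90. It also held the CHR-type TTCGAA from -246, CCAAT on the opposite strand from -100 and -58, and an ETS-type match from -53. No subunit peak reached into the printed window of MCM6, so CHR-type and CCAAT letters occurred there without RBBP4. At CDKN1B the summits of the 4 subunits lay between -231 (MTA2) and -187 (CHD4).

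Promoter marks were common at these genes. H3K4me3 was found at 47 of 49 (95.9%), against 56.9% of all other protein-coding genes. H3K27ac was found at 42 (85.7%), against 66.8% of the comparison genes. H3K4me1 was found at 7 (14.3%, against 9.05%) and H3K27me3 at 1 (2.04%, against 2.41%). The 7 members without H3K27ac were CCNE1, CDK6, CDKN1C, CDKN2B, E2F1, E2F8 and ORC1, and the 2 without H3K4me3 were CDKN2B and ORC1. H3K4me3 peaks at members had a median height of 20.8 (range 12.2 to 33.1, n = 47 genes), against 19.0 at comparison genes. The median height of H3K27ac was 11.3 (4.80 to 28.4, n = 42), against 9.47. The widest H3K4me3 peak of a member had a median width of 1847 bp, from 863 bp at E2F4 to 4781 bp at CDK6, and the median at comparison genes was 1554 bp.

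HDAC2 and RBBP4 peaks were found at larger shares of these genes than of the comparison genes, and CHD4 and MTA2 peaks were not. HDAC2 was present at 41 of 49 members (83.7%, 95% Wilson interval 71.0 to 91.5% for counting over genes only), against 65.7% of comparison genes. RBBP4 was present at 29 (59.2%, 45.2 to 71.8%), against 37.3%. MTA2 was present at 17 (34.7%, 22.9 to 48.7%), against 35.3%, and CHD4 at 5 (10.2%, 4.44 to 21.8%), against 17.0%. H3K27ac moved with this difference, and among comparison genes that also carried H3K27ac (n = 7578) the shares were 73.5% for HDAC2, 45.2% for RBBP4, 42.7% for MTA2 and 20.5% for CHD4. Among the 42 members with H3K27ac, HDAC2 was found at 37 (88.1%), RBBP4 at 27 (64.3%), MTA2 at 15 (35.7%) and CHD4 at 5 (11.9%). The HDAC2 and RBBP4 shares thus stayed above, and the MTA2 and CHD4 shares below, those of comparison genes with the same 2 marks. With peaks of −log10 p of at least 15 alone, the HDAC2 difference shrank from 18.0 to 5.7 percentage points and the RBBP4 difference from 21.9 to 13.8 points. The RBBP4 list reaches down to a −log10 p of 7.01, and at 9 or more, as in the other subunit lists, RBBP4 was found at 26 members and the difference was 19.0 points. Another protein-coding gene had an end within 2 kb of 21 members (42.9%) and of 46.7% of comparison genes.

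**Figure D1:**
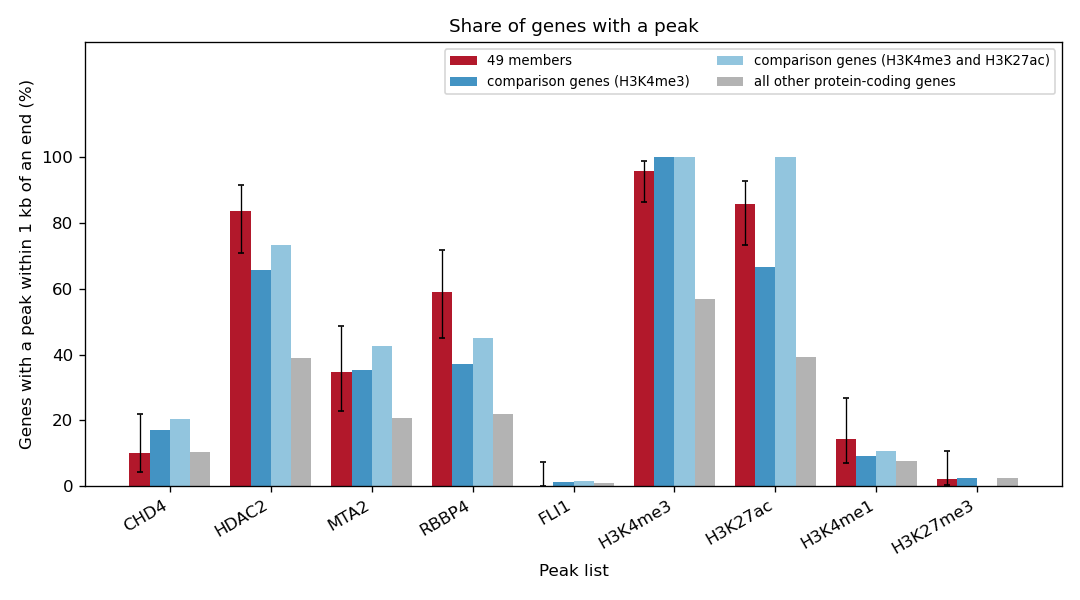
Share of genes (%) with a peak of each list within 1 kb of an end, for the 49 cell cycle and replication genes (red, bars with 95% Wilson intervals for counting over genes), comparison genes with H3K4me3, comparison genes with H3K4me3 and H3K27ac, and all other protein-coding genes. The red bar stands above every other bar for HDAC2 (83.7%) and RBBP4 (59.2%), and below both comparison groups for CHD4 (10.2%).

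FLI1 was not found near the ends of any member (0 of 49, Wilson interval up to 7.27%), and 1.37% of comparison genes had such a peak. Within 100 kb of an end, 8 members had a FLI1 peak (16.3%), against 13.9% of comparison genes. The nearest was at PCNA, the sliding clamp of DNA polymerases, where a FLI1 peak of height 5.42 lay 1.79 kb beyond the annotated end of the gene that is away from its start. That peak (chr20:5112956-5113162) covered an annotated end of TMEM230, so it was nearer to TMEM230 than to PCNA. The others were MCM5 (23.0 kb), E2F7 (24.5 kb), CDKN2A (47.7 kb), CDK2 (69.0 kb), CDKN2B (82.8 kb), BUB1B (83.5 kb) and CDK4 (84.6 kb). CDKN2A and CDKN2B are neighbours and share 1 FLI1 peak. The median distance from a member to the nearest FLI1 peak was 494 kb.

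Peaks of the subunits were combined in a pattern that differed from the comparison genes. All 4 subunits were found at 3 members (6.12%, against 9.39%), 3 subunits at 8 (16.3%, against 13.7%), 2 at 21 (42.9%, against 24.1%), 1 at 14 (28.6%, against 28.3%) and none at 3 (6.12%, against 24.5%). HDAC2 and RBBP4 together, with neither CHD4 nor MTA2, were found at 16 members (32.7%, 21.2 to 46.6%), against 11.5% of comparison genes and 13.4% of those with H3K27ac. This count fell to 13 when all lists were limited to a −log10 p of 9 or more, and to 6 at 15 or more. These 16 were AURKA, AURKB, BUB1, CCNA2, CCNB1, CCNB2, CCNE2, CDC25A, CDK1, CDK6, CDKN2C, E2F3, E2F5, E2F8, MAD2L1 and PLK1. MTA2 without RBBP4 was found at 8 members (16.3%, against 16.1%), and RBBP4 without HDAC2 at 3 (6.12%, against 4.52%), namely CDC6, CDC20 and CDC25C.

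The heights of the subunit peaks were close to those at comparison genes with a peak. The median height was 4.43 against 4.78 for HDAC2 (n = 41 members), 3.81 against 3.73 for RBBP4 (n = 29), 6.08 against 6.57 for MTA2 (n = 17) and 3.79 against 3.97 for CHD4 (n = 5). The ranges over members were 2.39 to 7.44, 2.61 to 7.51, 4.36 to 9.38 and 3.24 to 5.24 in the same order. Each member median lay between the lower and upper quartiles of the comparison genes. The Spearman correlation of HDAC2 and RBBP4 heights was 0.19 over the 26 members with both, against 0.39 over 3714 comparison genes, both given as descriptions of points that share the same 2 libraries.

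**Figure D2:**
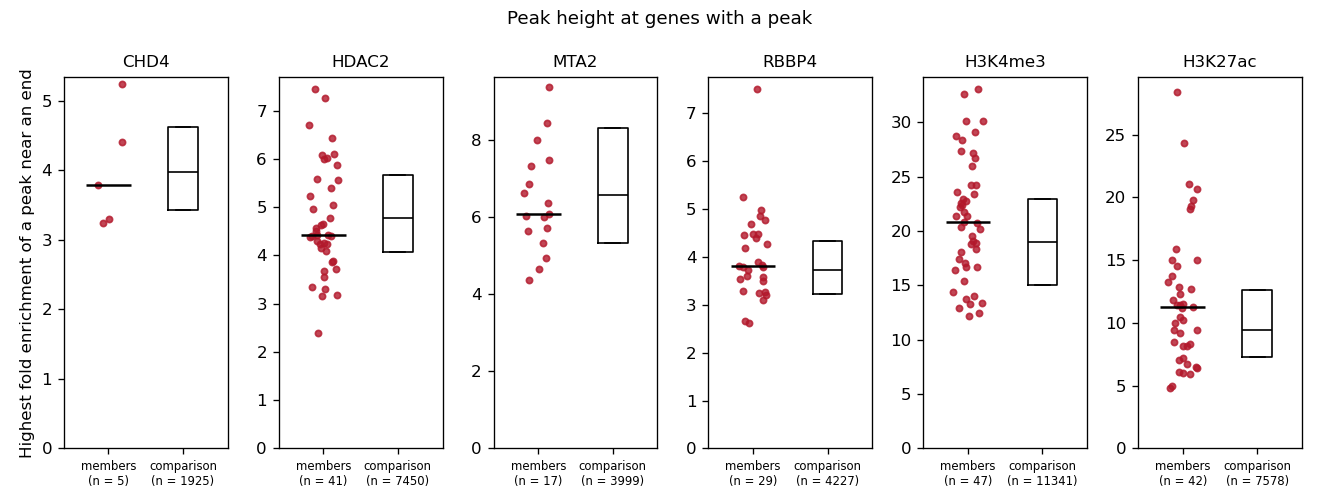
Highest fold enrichment of a peak near an end of each gene with a peak, for the members (red points, bar at the median) and the comparison genes (box from the lower to the upper quartile with the median), in 6 lists with separate axes from 0. The member medians lie inside the comparison boxes in all 6 lists, and CDK1 stands alone at the top of RBBP4 at 7.51.

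The roles below hold 2 to 8 genes each, and their counts are to be read against the comparison shares of 65.7% for HDAC2, 37.3% for RBBP4, 35.3% for MTA2 and 17.0% for CHD4.

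The cyclins activate the CDKs, and all 5 in the set had an HDAC2 peak and none an MTA2 or CHD4 peak. CCNA2, CCNB1 and CCNB2, which act from S phase to mitosis, had HDAC2 peaks of height 4.63, 3.88 and 4.16 and RBBP4 peaks of 4.86, 3.78 and 3.60. CCNB1, whose product brings CDK1 into mitosis, had the lowest H3K27ac height of all members with that mark (4.80). Of the cyclins that act with CDK2 at the start of S phase, CCNE2 had one of the 5 highest HDAC2 peaks (6.70) with a low RBBP4 peak (2.66). CCNE1 had HDAC2 alone (3.30) and no H3K27ac peak. An end of the protein-coding gene BBS7 lies 446 bp from the start of CCNA2, and an end of NDUFAF6 lies 894 bp from the end of CCNE2 that carries its peaks, so those peaks cannot be given to 1 gene.

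Among the CDKs, all 4 had an HDAC2 peak with RBBP4 beside it at CDK1 and CDK6 and MTA2 beside it at CDK2 and CDK4. CDK1, the mitotic kinase, had the highest RBBP4 peak of all members (7.51), above 99.8% of RBBP4 peaks at comparison genes, and an HDAC2 peak of 5.40. CDK2 and CDK4, kinases of the G1 to S step, had MTA2 peaks (4.65 and 4.95) and no RBBP4, and the HDAC2 peak of CDK4 was the lowest of the set (2.39). At CDK2 the HDAC2 and MTA2 peaks lay beyond the high-coordinate end of the gene, 1160 bp from which RAB5B has an end, and its strongest H3K4me3 lay at the low-coordinate end, 121 bp from an end of PMEL. No start site was listed for CDK2, so these subunit peaks cannot be given to its promoter. CDK2 and CDK4 also had some of the 5 highest H3K4me3 peaks, 32.6 and 29.1. CDK6, a partner of the D-type cyclins, was the single member with an H3K27me3 peak.

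CDK6 (chr7:92604921-92836573, minus strand) had H3K4me3 of height 19.1, HDAC2 of 6.43, RBBP4 of 3.83 and no H3K27ac near its ends. Its H3K27me3 peak (chr7:92837091-92837644, height 5.29, −log10 p 13.2) had its summit 701 bp upstream of the start, and the H3K4me3 peak (chr7:92832535-92837315), 4781 bp wide, reached into it. The height of the H3K27me3 peak exceeded 12.5% of H3K27me3 peaks at comparison genes. Inside the same H3K4me3 peak, but outside the 1 kb window, lay CHD4 peaks of 3.42 and 3.61. An HDAC2 peak of 5.73 and an RBBP4 peak of 3.61 lay beside them, so the absence of CHD4 at CDK6 holds for the window only. The stretch of the 232 kb gene more than 1 kb from both ends was reached by 7 CHD4, 6 HDAC2, 3 MTA2, 8 RBBP4, 11 H3K4me1 and 1 H3K27ac peaks. These counts include the HDAC2 peak of 6.43 and the RBBP4 peak of 3.83, which cross the edge of the window.

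The CDK inhibitors ranged from all 4 subunits to none. CDKN1B, which encodes p27, had CHD4 (3.30), HDAC2 (4.30), MTA2 (5.63) and RBBP4 (4.28) peaks and the highest H3K27ac of the set (28.4, above 99.7% of comparison peaks). Its H3K4me3 reached 22.9 at the start. An H3K4me3 peak of 30.1 lay beyond the far end of the 5.00 kb gene, with its summit 7650 bp from the start. An end of GPR19 lies 122 bp from the start, where the 4 subunit peaks were. CDKN2A, which encodes p16 and p14ARF, also had all 4 subunits, with the highest CHD4 peak of the set (5.24), HDAC2 of 6.07, MTA2 of 6.01 and RBBP4 of 5.26, beside H3K4me3 of 26.0 and H3K27ac of 19.3. Peaks of all 4 subunits occurred a further time inside CDKN2A, with summits 7.33 to 7.50 kb from its nearest end (chr9:21974956-21975346 for CHD4, height 4.28, and chr9:21974956-21975318 for MTA2, height 8.15). H3K4me3 of 15.9 and H3K27ac of 12.1 were called there as well.

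CDKN2B, which encodes p15 and neighbours CDKN2A, had no peak of any list within 1 kb of its ends. The nearest H3K4me3 peak (17.1) lay 5.79 kb away and the nearest HDAC2 peak 7.50 kb away, both at the start of CDKN2A, and the nearest H3K27me3 peak was 590 kb away. CDKN2C, which encodes p18, had HDAC2 (3.34) and RBBP4 (4.47) at its start. Its H3K27ac of 24.3, second in the set, and its H3K4me1 of 5.13 lay beyond the far end of the 13.9 kb gene. The summit of that H3K27ac peak was 17086 bp from the start, and H3K27ac at the start itself was 7.21. An end of FAF1 lies 478 bp from the start of CDKN2C, so the HDAC2 and RBBP4 peaks there cannot be given to 1 gene. CDKN1C, which encodes p57, had MTA2 alone among the subunits (6.36) and the highest H3K4me1 of the set (9.90). An HDAC2 peak of 5.19 at CDKN1C (chr11:2884407-2884650) lay just outside the window, with its summit 1.23 kb from the nearest end.

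The pocket proteins restrain E2F factors, and all 3 genes had HDAC2. RBL1, which encodes p107, had the highest HDAC2 peak of the set (7.44, above 95.4% of comparison peaks) with MTA2 of 6.86, RBBP4 of 4.78 and H3K27ac of 20.7, while its H3K4me3 was the lowest called (12.2). RB1 had HDAC2 of 4.23 and MTA2 of 8.43 at its upstream end, without RBBP4 or CHD4. A second cluster lay inside RB1, 68.7 kb from the far end, with CHD4 (4.89), HDAC2 (5.50) and RBBP4 (3.90) peaks beside H3K4me3 of 16.8. RBL2, which encodes p130, had HDAC2 alone (4.56).

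Of the 8 E2F factors, 7 had HDAC2 (87.5%, against 65.7% of comparison genes), 4 had RBBP4 (50.0%, against 37.3%), 3 had MTA2 (37.5%, against 35.3%) and 1 had CHD4 (12.5%, against 17.0%). With 8 genes, 1 gene more or fewer moves a share by 12.5 points. The MTA2 and CHD4 shares were within that step of the background, and the RBBP4 share lay about 1 such step above it. E2F7, a repressor of the family, had all 4 subunits, with CHD4 at 3.79, HDAC2 at 4.78, MTA2 at 6.02 and RBBP4 at 3.81, beside H3K4me3 of 23.4 and H3K27ac of 10.5. E2F8, the other atypical repressor, had HDAC2 of 7.27, second in the set, and RBBP4 of 3.90 with no H3K27ac. The activator E2F3 had HDAC2 of 4.66, RBBP4 of 4.69 and H3K27ac of 19.8, and E2F5, a repressor, had 5.57, 4.39 and 19.1. The start of E2F3 lies inside the protein-coding gene LOC124901482, whose ends are 893 and 1138 bp away. The HDAC2 and RBBP4 peaks of E2F3 thus cannot be given to 1 gene. The activator E2F2 had HDAC2 of 5.58 and no other subunit. E2F6, a repressor found in Polycomb-type complexes, had HDAC2 of 5.87 and the lowest MTA2 peak of the set (4.36).

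E2F1, the first activator of the family, had HDAC2 of 4.40, MTA2 of 5.72 and H3K4me3 of 30.1 at its far end, 129 bp from which NECAB3 has an end. At its own start it had H3K4me3 of 12.9 and no subunit peak. E2F4, a repressor that works with the pocket proteins, had H3K4me3 of 16.4 and H3K27ac of 5.01 and no subunit. The nearest subunit peaks to E2F4 were HDAC2 at 7.60 kb (4.60) and MTA2 at 7.94 kb (17.4).

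The MCM proteins form the replicative helicase, and RBBP4 was found at 1 of 6, MCM7 (3.21). MCM7 also had HDAC2 of 4.41, MTA2 of 6.08, H3K27ac of 21.1 and the highest H3K4me3 of the set (33.1), with an end of AP4M1 603 bp from its start, among these peaks. MCM2, whose start lies 180 bp from an end of TPRA1, had the highest MTA2 peak (9.38, above 83.6% of comparison peaks) and no other subunit, with H3K4me3 of 15.4 and H3K27ac of 9.98. MCM3, MCM4, MCM5 and MCM6 had HDAC2 alone, with heights of 4.43, 4.97, 3.17 and 4.25. The end of MCM4 that carries its peaks lies 805 bp from an end of PRKDC.

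The factors that load the helicase, and the clamp, were mixed. PCNA had HDAC2 of 6.01, MTA2 of 7.33 and RBBP4 of 4.48, all at its start, 386 bp from an end of CDS2. GMNN, which encodes the inhibitor of loading, had HDAC2 of 3.86, MTA2 of 7.99 and RBBP4 of 3.27. CDT1, a loading factor, had CHD4 of 4.41, HDAC2 of 4.24 and MTA2 of 7.49 without RBBP4. CDC6, another loading factor, had RBBP4 alone (3.58). ORC1, a subunit of the origin recognition complex, had no peak within 1 kb of either annotated end (chr1:52372829-52409503). The start site that RefSeq lists for ORC1 lies inside these bounds, and H3K4me3 of 22.6 (chr1:52403123-52405700), HDAC2 of 4.13 and H3K27ac of 6.87 were found around it.

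Every one of the 7 mitotic kinase and checkpoint genes had RBBP4. AURKB, of the chromosomal passenger complex, had the highest RBBP4 peak of the 7 (4.99), with HDAC2 of 5.24. PLK1, the polo kinase, had RBBP4 of 4.45 and HDAC2 of 3.67, and AURKA, of the spindle poles, had 4.19 and 3.72. An end of CSTF1 lies 164 bp from the end of AURKA that carries its peaks, so those peaks cannot be given to 1 gene. The spindle checkpoint genes BUB1, BUB1B and MAD2L1 had RBBP4 of 3.50, 3.54 and 3.10 and HDAC2 of 3.15, 4.39 and 4.43. BUB1B was the single gene of the 7 with MTA2 (6.63). CDC20, the activator of the anaphase-promoting complex, had RBBP4 (3.78) and no HDAC2. None of the 7 had CHD4.

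The CDC25 phosphatases activate CDKs and WEE1 inhibits them, and all 4 genes had RBBP4. CDC25A had HDAC2 of 6.11, among the 5 highest, with the lowest RBBP4 peak of the set (2.61). CDC25B had HDAC2 of 4.10, MTA2 of 5.32 and RBBP4 of 3.72 at its start, 211 bp from an end of CENPB. Its H3K27ac of 13.3 and H3K4me1 of 8.74 lay near the far end. CDC25C had RBBP4 alone (3.25), with an end of FAM53C 798 bp from its start. WEE1 had CHD4 of 3.24, HDAC2 of 4.50 and RBBP4 of 3.29. FOXM1 and MYBL2, transcription factors of the mitotic genes, had HDAC2 peaks and no other subunit. The HDAC2 height of FOXM1 was 5.05, above 59.4% of comparison peaks, and that of MYBL2 was above 81.8%. The end of FOXM1 that carries its peaks lies 909 bp from an end of RHNO1.

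**Figure D3:**
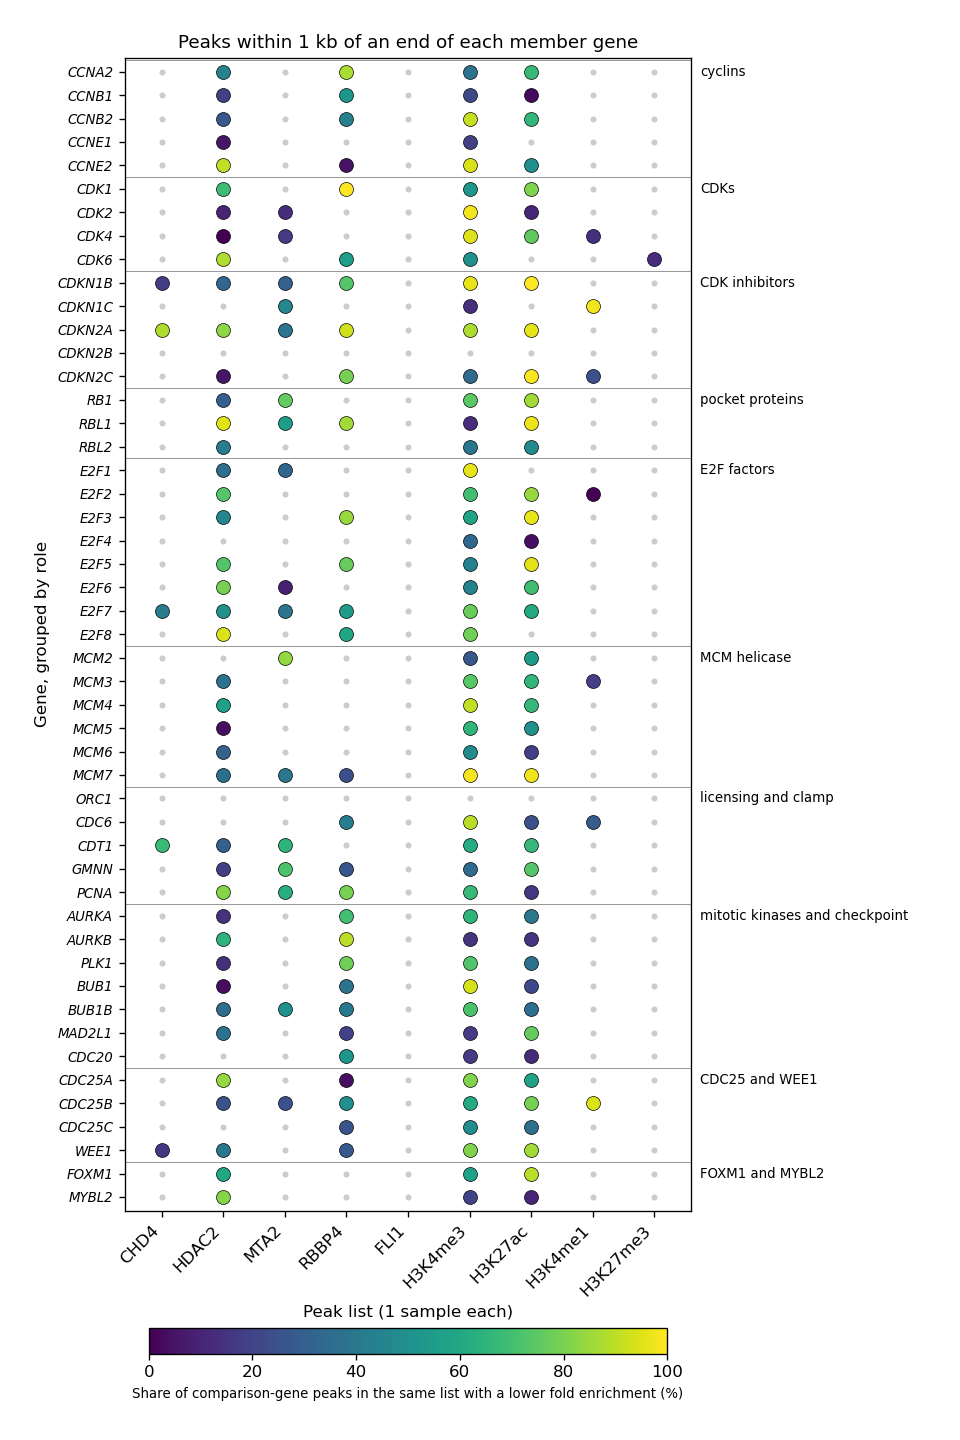
Peaks of the 9 lists (columns) within 1 kb of an end of each of the 49 genes (rows, grouped by role), where a large dot is a peak, its colour the share of comparison-gene peaks of the same list with a lower height, and a small grey dot no peak. The HDAC2 column is filled for 41 genes, the RBBP4 column is filled for all mitotic kinase and checkpoint genes and for MCM7 alone of the MCM genes, and the FLI1 column is empty.

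RBBP4 was more frequent at mitotic than at replication genes, a grouping of the members made after their values were seen. The 11 mitotic members were CCNA2, CCNB1, CCNB2, CDK1 and the 7 kinase and checkpoint genes. They had RBBP4 at 11 (100%, against 37.3% of comparison genes) and HDAC2 at 10 (90.9%, against 65.7%). MTA2 was found at 1 (9.09%, against 35.3%) and CHD4 at 0 (against 17.0%). Of these members 9 had HDAC2 and RBBP4 alone, against 11.5% of comparison genes. The 11 replication members were MCM2 to MCM7, ORC1, CDC6, CDT1, GMNN and PCNA. They had RBBP4 at 4 (36.4%), HDAC2 at 8 (72.7%), MTA2 at 5 (45.5%) and CHD4 at 1 (9.09%). The RBBP4 share of the replication members was thus near the 37.3% of comparison genes. H3K27ac was present at 11 mitotic and 10 replication members, with median heights of 8.33 and 10.6. Whether the mark bears on the RBBP4 difference was not tested. With peaks of −log10 p of at least 15 alone, RBBP4 was found at 8 mitotic members and 1 replication member.

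The same reading was made in 99 other cell cycle genes, a list by function that contains none of the 49. That list was written with earlier results of these data known. It was read in the same peak lists, so it is not an independent repeat. RBBP4 was found at 26 of 30 other mitosis genes (86.7%) and 15 of 35 other replication genes (42.9%). HDAC2 was found at 24 of 30 and 22 of 35 (62.9%) in the same order, above and below the comparison share of 65.7%. MTA2 was found at 9 of 30 and 14 of 35, below and above the comparison share of 35.3%. CHD4 was found at 5 of each list (16.7% and 14.3%), against 17.0%. HDAC2 and RBBP4 alone were found at 14 of 30 mitosis genes and 5 of 35 replication genes, against 11.5% of comparison genes. BIRC5, the survivin subunit of the chromosomal passenger complex, had the highest RBBP4 peak of the 99 (6.92) with HDAC2 of 5.15. The mitosis genes without RBBP4 were TOP2A, ZWINT, BUB3 and SMC2. RBBP4 was found at 9 of 18 ubiquitin ligase and anaphase-promoting complex genes, 4 of 8 further CDK and checkpoint genes and 2 of 8 partners of E2F and DREAM. Over all 99 genes it was found at 56 (56.6%), HDAC2 at 68 (68.7%), MTA2 at 38 (38.4%) and CHD4 at 13 (13.1%).

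Elsewhere in that list, H3K27me3 was found at 0 of 99 genes and FLI1 at 1 (1.01%), POLE, the catalytic subunit of a replicative polymerase, with a FLI1 height of 7.53. POLE also had MTA2 of 5.78, H3K4me3 of 21.9 and H3K27ac of 22.0. The 4 genes without H3K4me3 were UHRF1, SMC2, CCNA1 and CCNB3, and they had no subunit peak either. The highest peaks of the remaining subunits were at GINS4 for CHD4 (5.61), at DBF4 for HDAC2 (8.24) and at ORC5 for MTA2 (16.7), all of them genes of replication. The HDAC2 share of the 99 genes was near that of comparison genes (65.7%) and thus below that of the 49.

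**Figure D4:**
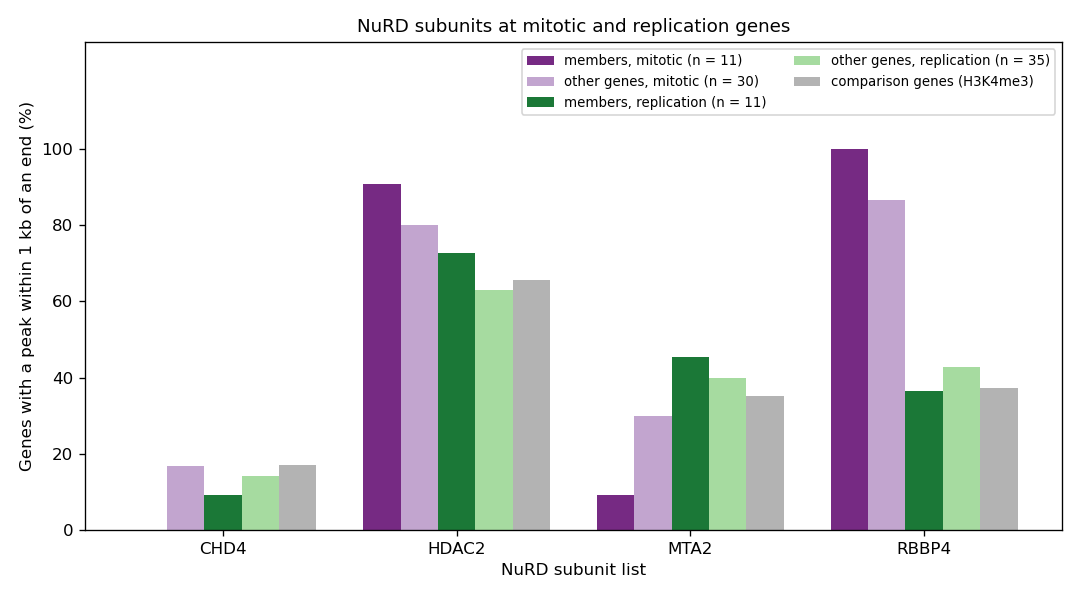
Share of genes (%) with a peak of each NuRD subunit list, for mitotic members (n = 11), other mitotic genes (n = 30), replication members (n = 11), other replication genes (n = 35) and comparison genes with H3K4me3. RBBP4 stands at 100% and 86.7% for the mitotic groups and at 36.4% and 42.9% for the replication groups.

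Peak positions were read against the start sites in the RefSeq promoter table, which lists 39 of the 49 genes, and 36 of these have a start within 10 bp of an annotated end. Summit positions were not read at comparison genes, so the values below have no background share. RBBP4 summits had a signed median of -34 bp from the start (negative values are upstream, n = 23), and 16 lay within 250 bp of the start. The CCNB1 summit fell on the start base itself, those of CCNB2, BUB1B and CDC20 at -9, -34 and -56, and that of BUB1 at 45. HDAC2 summits had a median of 69 bp (n = 30), with 18 within 250 bp, and MTA2 summits a median of -94 bp (n = 14). The marks had medians downstream, at 222 bp for H3K27ac (n = 32) and 283 bp for H3K4me3 (n = 35). Of the 32 H3K27ac summits, 21 also lay within 250 bp of the start.

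**Figure D5:**
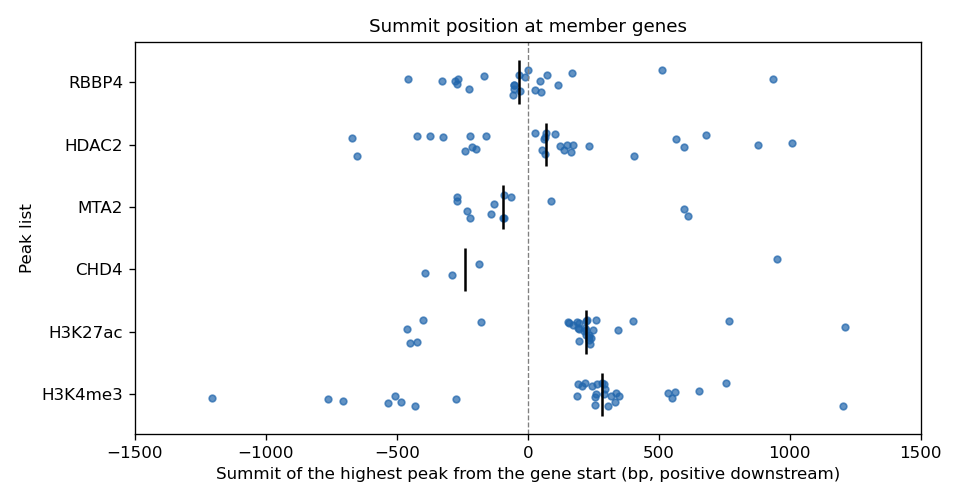
Position of the summit of the highest peak from the gene start (bp, positive downstream, 1 point per gene, bar at the median over all genes with a peak) for members whose listed start is an annotated end. RBBP4 points gather around 0 (median -34 bp) and H3K27ac points around 222 bp, and summits more than 1500 bp from the start are not drawn. These lay at or beyond the far ends of genes, except the H3K4me3 summit of CDK6, 3167 bp from its start.

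Motifs were counted in the full promoter windows of the table, 250 bases before to 50 after the start, on both strands, with overlapping matches counted once per promoter. E2F-type letters were present in 13 of 39 member promoters (33.3%), against 4.81% of 9376 comparison promoters and 3.78% of all 15812. The 13 were those of CDC25A, CDC6, CDK1, CDT1, E2F1, E2F2, E2F3, MCM2, MCM3, MCM6, MCM7, PCNA and RBL1. CHR-type letters were present in 10 (25.6%, against 10.8% and 13.5%): BUB1, BUB1B, CCNB2, CDC20, CDK1, E2F3, MAD2L1, MCM6, PLK1 and RBL2. CCAAT was present in 20 (51.3%, against 37.5% and 36.3%). The ETS-type letters, the core read by FLI1 and its relatives, were present in 9 (23.1%, against 31.4% and 22.8%). The median GC content was 63.3% in member promoters and 66.0% in comparison promoters.

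RBBP4 was set beside these letters. It was found at 8 of the 10 members with CHR-type letters and 16 of the 29 without, at 16 of the 20 with CCAAT and 8 of the 19 without, and at 7 of the 13 with E2F-type letters and 17 of the 26 without. Among comparison genes, 44.6% of those with CHR-type letters and 36.7% of those without had RBBP4. The same shares were 35.8% and 38.6% for CCAAT, so the order seen for CCAAT in the members was not seen in the comparison genes. For E2F-type letters they were 41.2% and 37.3%. Letters were read at the listed start and peaks at the annotated ends. The listed starts of RB1 and ORC1 lie inside the gene, more than 1 kb from either end, and both genes were kept. Comparison promoters were not filtered for this either. These counts describe letters in a window and were not tested.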

How the data were processed

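ChIP-seq peak lists of 9 targets in SK-N-MC, 1 sample each, were used, with the target of each sample taken from its label. The submitters' processing notes name BWA 0.7.17, SAMtools 1.9, bedtools 2.27.1, deepTools 3.2.1, FastQC 0.11.7 and Trimmomatic 0.36, and the build GRCh38. MACS2 appears in the deposited peak names. Its version, the control library and any pooling were not found in the labels or files. Column 7 holds the fold enrichment, a ratio from the authors' peak caller, and the deposited −log10 p was used as a filter. The lowest −log10 p was 7.01 for RBBP4, 5.02 for FLI1 and about 9 in the other lists, so lists differ in stringency.

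Peaks were joined to gene ends of the RefSeq gene table with Python 3.11.15, pandas 2.3.3 and numpy 2.4.6 (minimum overlap 1 base, window 1 kb). The joining was tested on simulated data, where 150 of 150 planted peaks were recovered. Members, gene lists and settings were chosen with earlier results of these data known. Every member was described, and every list's extremes were named by rule: the 5 highest per subunit, H3K27ac and H3K4me3 list, and members with FLI1, H3K27me3, all 4 subunits, no subunit or no H3K4me3. Further values and the RBBP4-free mitosis genes were chosen after they were seen. No test was run, since each target had 1 sample. Alternatives covered the window, the summit, −log10 p, start sites, neighbours and the comparison genes.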

Additional observations from a re-analysis of the deposited data

How the results depend on the processing

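Over 30 results and 11 alternatives, 222 of 239 values stayed within their limits and 17 moved. Counts were held to 1.5 times the count reported, and differences in share to the stated counting interval. Ratios of median height were held to an interval for the member median, read from the ranked member heights. A window of 500 bp left H3K4me1 at 3 members and H3K27me3 at 0, and one of 2 kb raised FLI1 to 1 (PCNA) and all 4 subunits to 5. With −log10 p of at least 15 the number of members fell to 2 for CHD4, 14 for RBBP4, 4 for H3K4me1, 0 for H3K27me3, 1 for all 4 subunits and 6 for HDAC2 and RBBP4 alone, and RBBP4 fell to 8 of the other replication genes and 1 of the replication members. Start sites alone gave 3 members with H3K4me1 among 39. The FLI1 difference, -1.4 points as reported, was -1.4 with summits and with start sites and -1.7 against comparison genes with H3K27ac, also with H3K27ac required of both groups, an alternative chosen after seeing the data; these 4 count as moved only because the interval of 0 of 49 has no lower side. It was 0.4 points in the 2 kb window, and the MTA2 difference of -0.6 was 0.6 with −log10 p of at least 15 and 0.9 over members with H3K4me3. The HDAC2 and RBBP4 differences kept their direction in every alternative run. Depth is unknown, so a missing peak cannot be told from one lost for lack of reads. No paired analysis was possible because each target had 1 sample.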
